A study of Homo sapiens with 7 samples.

Results

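The HOX genes of human cells lie in 4 clusters, and 38 of them (10 of HOXA, 10 of HOXB, 9 of HOXC and 9 of HOXD) were examined for CTCF peaks in K562 cells. Peaks were taken when they overlapped a cluster, from its first to its last listed gene, or the 100 kb on either side of it. This gave 44 of the 33094 peaks of control cells and 49 of the 32917 peaks of cells treated with pyridostatin (PDS). K562 is an established line of human leukaemia cells, and PDS is a small molecule that binds folded G-quadruplexes (G4s), structures that runs of G can form. The control cells gave 2 CTCF samples and 1 IgG sample, and the cells kept with 10 μM PDS for 24 h gave 2 CTCF and 2 IgG samples. IgG is the nonspecific antibody used as background in chromatin immunoprecipitation with sequencing (ChIP-seq). The authors called peaks once per condition on both CTCF samples together, so each condition has 1 list, with a fold enrichment over IgG and a p-value for each peak. The lists hold no read counts and no value per replicate. The depth is therefore unknown, no SD and no test between conditions can be given, and the intervals below are Wilson 95% confidence intervals that cover counting error only. Folds are relative to the IgG of their own condition, and whether the control folds also used a further IgG replicate is not known from the lists. A peak is therefore described by its fold and by its percentile within its own list, where 100 is the strongest peak.

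HOX genes encode homeodomain transcription factors that give cells of the embryo their position along the body axis, and several of them also act in blood cell precursors. Within a cluster the genes are transcribed in the same direction, and their order on the chromosome follows the order in which they are expressed from head to tail, from the anterior genes with low numbers to the posterior genes with high numbers. CTCF is a zinc finger protein that binds DNA through a long sequence motif, and at HOX clusters its sites are known as boundaries between active and silenced genes. G4 motifs are a second sequence feature examined here, since PDS acts on the structures they form.

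The sequences at the strongest HOX peaks came from the GRCh37 (hg19) genome. In each list only 2 HOX peaks held an exact match to the CTCF consensus, a motif of 15 positions searched on both strands. These matches are shown with 5 bases on both sides, the match in capitals, and both ran along the strand on which the HOX genes are transcribed.
HOXA7 to HOXA9, intergenic, chr7:27200754-27200768, minus strand: ggcggCCAGCAGATGGCAGTgtggc
HOXD3, intron, chr2:177005373-177005387, plus strand: ctcgtCCAGGAGGAGGCGCTgtagg
The G4 motifs (4 runs, each of 3 or more G, separated by 1 to 7 nt) of peaks with high folds are shown by the following examples, with the runs of G in capitals.
HOXA7 to HOXA9, chr7:27200512-27200534, plus strand: GGGcccccGGGatGGGGtcaGGG
HOXB6, intron, chr17:46679885-46679910, plus strand: GGGGctaggatGGGcGGGGacGGGGG
HOXB6, intron, chr17:46680004-46680031, minus strand: GGGtccacGGGattcGGGGGatttcGGG
HOXB7, intron, chr17:46696222-46696241, plus strand: GGGGaGGGataGGGagtGGG
HOXC-AS3, exon, chr12:54378560-54378593, minus strand: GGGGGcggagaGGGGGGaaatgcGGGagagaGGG
HOXD3, intron, chr2:177005416-177005432, plus strand: GGGccGGGGaGGGcGGG
HOXD3, intron, chr2:177005585-177005614, plus strand: GGGagcctaGGGccgttccGGGttggcGGG
The peaks in the HOXA7 to HOXA9 interval and in HOXD3 thus held both features, a consensus match and G4 motifs.

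CTCF peaks were denser inside the clusters than beside them, least so in HOXB. Between the first and last listed genes, 515 kb in all, control cells had 29 peaks (5.63 per 100 kb) and PDS-treated cells 34 (6.60 per 100 kb). The flanks, 800 kb in all, held 15 peaks in each list, or 1.88 per 100 kb. HOXB carried 8 of the control and 7 of the PDS flank peaks, so that its flanks had 4.0 and 3.5 peaks per 100 kb. Over all chromosomes the density was 1.07 peaks per 100 kb for control and 1.06 for PDS-treated cells. The density within the genes was highest in HOXD, with 7.13 peaks per 100 kb in the control and 9.17 in the PDS list against 0.961 and 0.920 over its whole chromosome. HOXC followed with 5.97 and 7.68, against 1.23 and 1.19 over its chromosome. HOXA had 5.01 in both lists against 1.14 in both, and HOXB had 4.99 and 5.49 against 2.15 and 2.31, the smallest contrast of the 4. Each of these values rests on 5 to 11 peaks, so the order of the clusters is a description only.

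**Figure D1:**
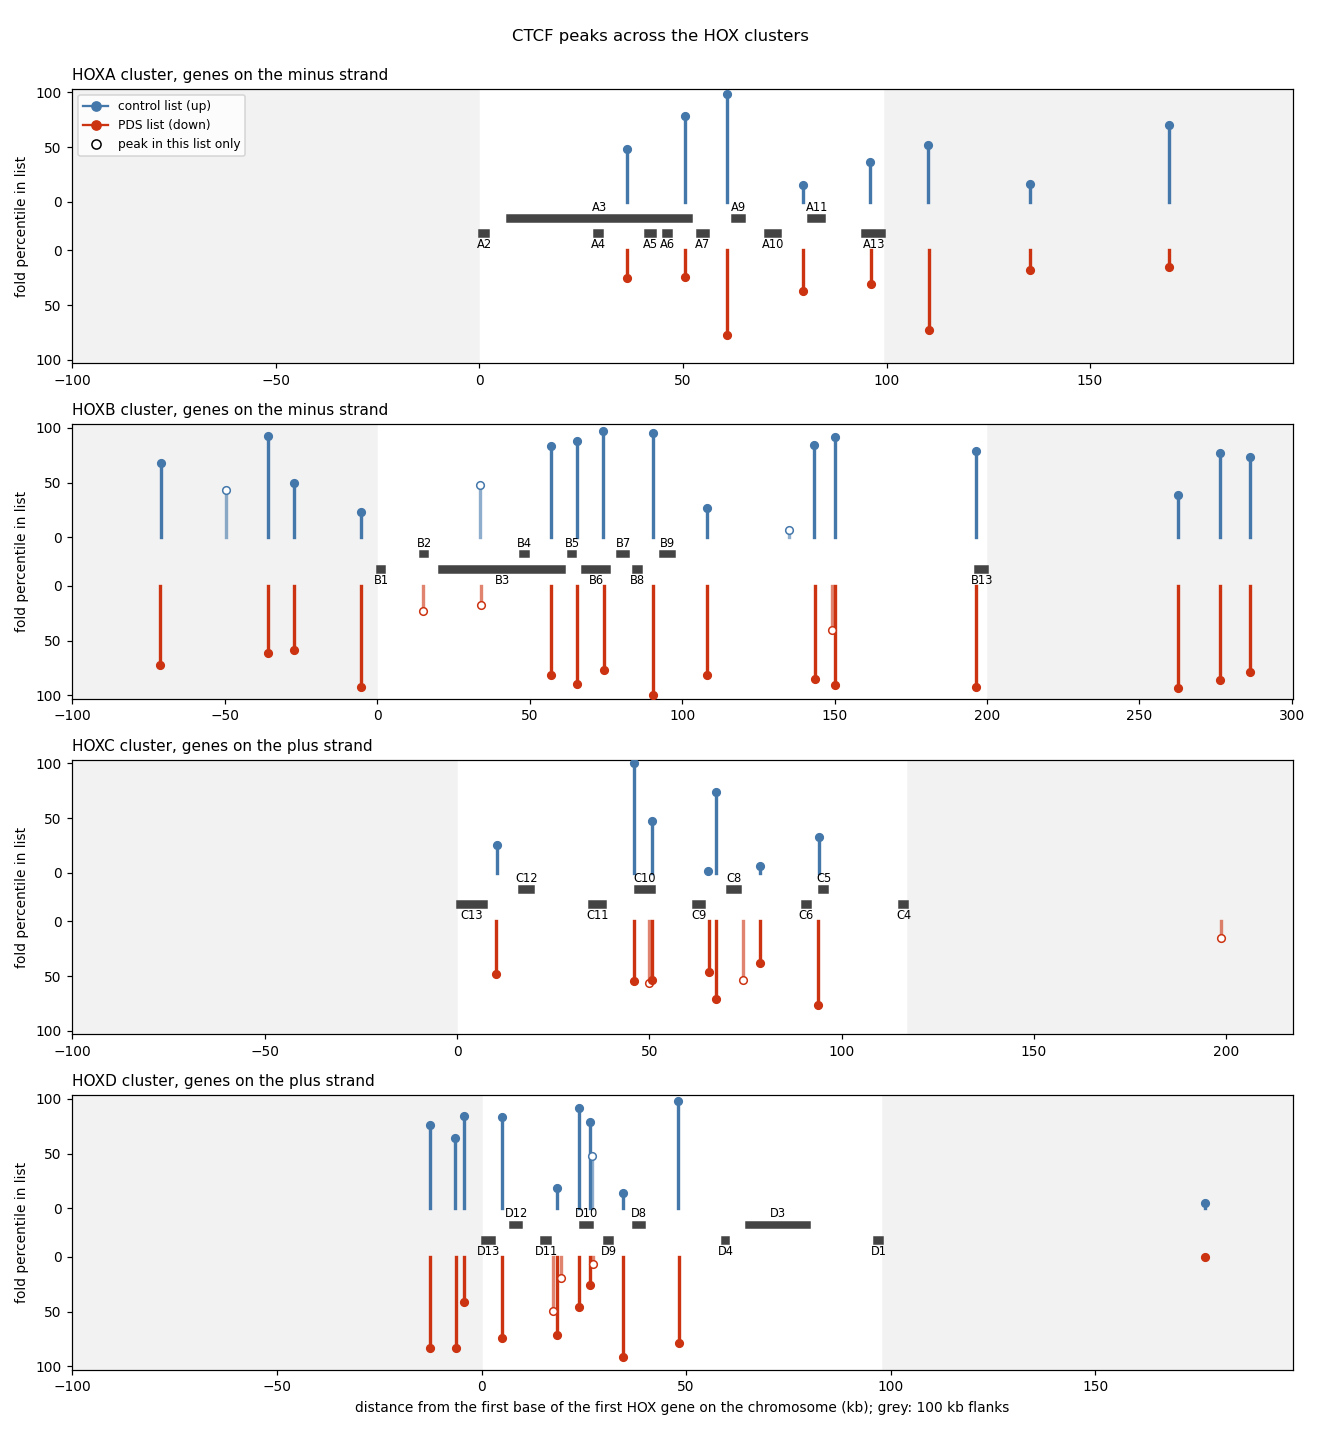
CTCF peaks along each HOX window, with the distance in kb from the first HOX gene on the x axis, dark bars for the canonical transcripts of the listed genes, and the fold percentile of each peak in its own list as the height (control upward in blue, PDS downward in red, open circles for peaks of 1 list only). HOXA has no peak in its anterior flank and HOXC only 1 flank peak, whereas the long empty stretch at the right of HOXD begins at the site between HOXD8 and HOXD4.

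Most HOX sites were present in both conditions. In control cells 40 of 44 peaks were shared, that is, they met a PDS peak in at least 1 bp (90.9%, interval 78.8 to 96.4%), beside 78.0% of all control peaks. In PDS-treated cells 40 of 49 were (81.6%, interval 68.6 to 90.0%), beside 78.6% of all PDS peaks. The value for all peaks lay just below the interval of the HOX share in the control list and inside it in the PDS list. Inside the clusters alone, 26 of 29 control peaks (89.7%, interval 73.6 to 96.4%) and 26 of 34 PDS peaks (76.5%, interval 60.0 to 87.6%) were shared, and both intervals include the value for all peaks. The 40 shared sites paired one to one, 26 of them inside the clusters and 14 in the flanks. Their centres lay at a median of 30 bp from each other and at most 250 bp, and 32 of 40 (80.0%) were within 100 bp, beside a median of 40 bp and 79.7% over all one-to-one peaks.

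**Figure D2:**
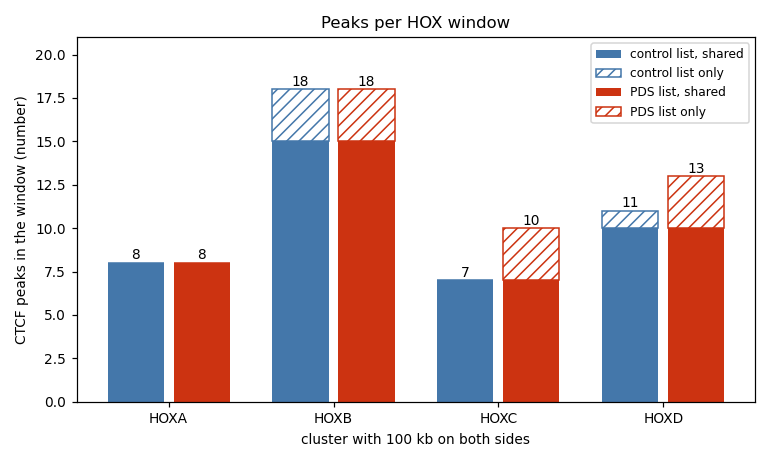
Number of CTCF peaks in each HOX window (y axis) for the control list (blue) and the PDS list (red), with filled parts for shared peaks and hatched parts for peaks of 1 list only. HOXA has 8 shared peaks and no others, HOXB 18 peaks in each list, HOXC 7 and 10, and HOXD 11 and 13.

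The HOXA cluster (chr7:27139973-27239710, minus strand) had the same 8 sites in both lists. Sites inside the cluster numbered 5, and the other 3 lay beyond HOXA13 on the posterior side. The 100 kb before HOXA2, on the anterior side, held no peak in either list. HOXA2, HOXA3 and HOXA5, which act in the hindbrain, neck and lung, were not nearest to any peak by the starts of their gene records, and the first site was met between HOXA4 and HOXA5. That site (chr7:27175981-27176280) lay in introns of HOXA3 and of the antisense gene HOXA-AS3, with a fold of 25.9 in control and 12.6 in PDS-treated cells. The second site lay at the start of the HOXA6 gene record. It stood at the 78.4 percentile of fold in the control and the 24.2 percentile in the PDS list, but at 59.2 and 65.6 by p-value.

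The highest fold of HOXA was found between HOXA7 and HOXA9, genes known for their activity in leukaemia. The control peak chr7:27200521-27201180 had a fold of 91.2, rank 393 of its list, and the PDS peak chr7:27200401-27201200 had a fold of 23.2, rank 7387. By p-value the order turned, with rank 3899 in the control and rank 554 in the PDS list. Further sites lay at the start of the HOXA10 record, at the 15.4 and 36.9 percentiles of fold, and over an exon of HOXA13, at 36.6 and 30.6. HOXA10 acts in blood cells and in the reproductive tract, and HOXA13 patterns the limb ends and the urogenital tract. In the posterior flank, folds ranged from 14.8 to 34.4 in control and from 10.2 to 21.6 in PDS-treated cells, and the last site before EVX1, a homeobox gene next to the cluster, was 35.5 kb beyond HOXA13.

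The HOXB cluster (chr17:46605888-46806112, minus strand) was the longest, at 200 kb, because HOXB13 lies far from HOXB9. Each list held 18 peaks there, of which 15 were shared. HOXB peaks stood high in both lists, with a median fold percentile of 75.0 in control and 81.0 in PDS-treated cells. In control cells the peak with the highest fold was chr17:46679701-46680360, over the long gene record of HOXB3 and over HOXB6, genes of the hindbrain and the trunk. It had a fold of 72.9 (rank 1013), and the PDS peak at this place, chr17:46679701-46680700, had a fold of 22.8 (rank 7762). By p-value this pair stood at rank 6971 in the control and rank 6957 in the PDS list, the 78.9 percentile in both. In PDS-treated cells the highest fold belonged to chr17:46695901-46696500, upstream of HOXB8 and within an intron of the HOXB7 record. Its fold was 54.0 (rank 185), and the control peak had a fold of 66.1 (rank 1482), so this site was among the strongest of both lists.

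Further HOXB sites surrounded these genes. A site 60 bp from the start of HOXB5 in the PDS list and 100 bp in the control list had folds of 29.0 and 48.9, and a site between HOXB4 and HOXB5 had folds of 24.5 and 44.2. By p-value both were near the top of both lists, at the 98.9 (PDS) and 99.6 (control) percentiles for the first and 95.7 and 99.5 for the second. By fold the first stood at the 89.5 (PDS) and 87.5 (control) percentiles and the second at 81.1 and 83.6. In the interval from HOXB9 to HOXB13, where long non-coding RNA genes take the place of HOX genes, shared sites lay in LINC03057 and in LINC02086. The stronger LINC02086 site, chr17:46755541-46756560, had a fold of 55.2 in control and 29.96 in PDS-treated cells. These folds stood at the 91.4 and 90.8 percentiles of their lists. At HOXB13, a gene of the tail bud and the prostate, the shared site overlapped an exon and PRAC2, with folds of 39.9 and 31.2. Its percentiles of fold were 78.7 in the control and 92.1 in the PDS list. The flanks added 4 shared sites before HOXB1 and 3 in TTLL6, which encodes a tubulin-modifying enzyme.

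The HOXC cluster (chr12:54332615-54449814, plus strand) had 7 peaks in the control and 10 in the PDS list, and 7 were shared. No control peak lay in its flanks. The site at the start of HOXC10, a posterior gene of the hindlimb region, gave the largest fold of any HOX peak in the control list. There the control peak chr12:54378541-54378900 had a fold of 132, rank 59 of 33094, and the PDS peak chr12:54378551-54378900 had a fold of 17.6, rank 14867. By p-value the same pair stood at rank 4213 in the control and rank 288 in the PDS list, so fold and p-value moved in opposite directions. The peak also overlapped part of the antisense gene HOXC-AS3. In PDS-treated cells the highest fold of the cluster was 22.9 (rank 7711), at chr12:54425951-54426750 beside the start of HOXC5. The control peak there, chr12:54426301-54426900, had a fold of 21.6 (rank 22143). By p-value the order at this site turned, with rank 2760 in the control and rank 10151 in the PDS list. A pair of sites lay upstream of HOXC8, which patterns the thorax. They stood at the 1.79 and 74.2 percentiles of fold in the control and at 46.4 and 70.5 in the PDS list. By p-value they stood at 38.6 and 84.2 in the control and at 28.1 and 82.2 in the PDS list.

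The HOXD cluster (chr2:176957449-177055635, plus strand) had 11 control and 13 PDS peaks, and 10 sites were shared. All but 1 of the shared sites lay between EVX2, the homeobox gene next to HOXD13, and HOXD3, and the last was at MTX2. The highest control fold lay in HOXD3, an anterior gene of the neck vertebrae, at chr2:177004981-177006000, with a fold of 80.4 (rank 662 by fold, rank 848 by p-value). The site was in an intron of the long HOXD3 gene record and lay 16035 bp (control) and 15835 bp (PDS) before the canonical start of the gene. The PDS peak chr2:177005051-177006200 had a fold of 23.6 (rank 7100 by fold) and stood at rank 182 by p-value, the best of any PDS peak in the HOX windows. In PDS-treated cells the highest fold was 30.1 (rank 2959), at chr2:176991751-176992050 upstream of HOXD8 in an intron of HOXD-AS2. The control peak there, chr2:176991541-176992320, was wider (780 against 300 bp) and had a fold of 13.6 (rank 28486). By p-value this site stood at rank 4259 in the control and rank 20134 in the PDS list.

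Downstream of the HOXD3 site no peak was called for 128 kb in either list. This stretch holds HOXD4, HOXD1, MIR10B and the canonical transcript of HOXD3, among others. It ends at the start of MTX2, a mitochondrial protein gene. At the other end of the cluster, the sites beyond HOXD13 included a peak over an EVX2 exon. It was 1260 bp wide in the control and 1500 bp in the PDS list, with folds of 38.04 and 25.4 and the 99.4 percentile by p-value in both. By fold it stood at the 76.2 percentile in the control and the 83.1 percentile in the PDS list. HOXD10 and HOXD13, posterior genes that act in the limb, had sites within 4009 bp of their starts in both lists.

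Each peak was assigned to the HOX gene with the nearest start. In the control list 25 of the 38 genes were nearest to at least 1 peak, in the PDS list 26, and 25 genes were so in both lists. The additional gene in PDS-treated cells was HOXB2, a hindbrain gene. It rests on 1 PDS-only peak of 100 bp, the narrowest width of that list. This peak stood at the 22.8 percentile by fold and 24.9 by p-value. The 12 genes nearest to no peak of either list were HOXA2, HOXA3, HOXA5, HOXA9, HOXA11, HOXB6, HOXB9, HOXC9, HOXC11, HOXC13, HOXD4 and HOXD11. This list depends on the starts of the gene records, because by the start of the canonical transcript 8 of the 12 were nearest to a peak, and HOXA2, HOXA5, HOXC11 and HOXC13 were nearest to none by either start. Genes at the ends of HOXA and HOXB collected the peaks of the flanks, with 5 control and 4 PDS peaks for HOXB1 and 4 in each list for HOXA13 and HOXB13. HOXB7 had 4 in each list, HOXD9 and HOXD13 had 3 in each, and HOXD10 had 1 in the control and 3 in the PDS list. By canonical start HOXB7 had 0 in both lists, HOXD9 had 0 in the control and 1 in the PDS list, HOXD10 had 3 in each, and HOXD13 kept 3 in each.

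**Figure D3:**
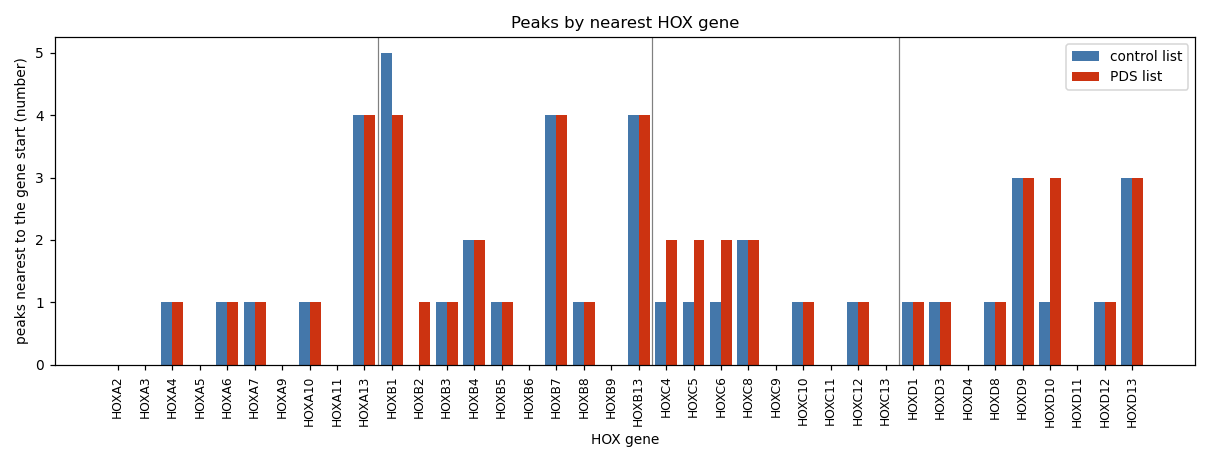
Number of CTCF peaks nearest to the start of each of the 38 HOX genes (y axis), blue for control and red for PDS, with vertical lines between the clusters. HOXB1 has the most control peaks (5), and genes with no bar, such as HOXA9 and HOXD4, are nearest to no peak.

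A peak lay within 1 kb of the start of 7 of the 38 HOX gene records (18.4%) in each list, the same 7 in both, close to the 22.2% (control) and 20.9% (PDS) of all protein-coding genes. These genes were HOXA6, HOXA10, HOXB5, HOXC4, HOXC5, HOXC6 and HOXC10, and no HOXD gene was among them. By place in the cluster, they were 0 of 7 anterior genes (groups 1 to 3), 5 of 15 central genes (groups 4 to 8) and 2 of 16 posterior genes (groups 9 to 13) by gene record, in both lists. Gene records of HOX clusters include long transcripts that begin in a neighbouring gene. With the start of the canonical transcript, a choice made after seeing the data, 4 genes (10.5%) had a peak within 1 kb in each list, namely HOXB5, HOXC5, HOXC10 and HOXD10, beside 22.8% (control) and 21.5% (PDS) of all protein-coding genes. By place these were 0 of 7 anterior, 2 of 15 central and 2 of 16 posterior genes. Of the 34 intervals between neighbouring canonical starts, 20 held a shared site, 5 of 9 in HOXA, 4 of 9 in HOXB, 6 of 8 in HOXC and 5 of 8 in HOXD. Intervals between other genes were not counted, so these numbers are a description only.

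Other genes of the windows also overlapped peaks. Among the antisense genes, HOXB-AS3 overlapped 4 peaks in each list, HOXA-AS3 overlapped 2, and HOXC-AS3 and HOXD-AS2 overlapped 1 each. No peak overlapped HOTAIR, HOTTIP or HOXA11-AS, long non-coding RNAs transcribed from HOXC and HOXA, or lay within 1 kb of their starts. Among the microRNA genes, MIR615 and MIR3185 had a peak within 1 kb in both lists, and MIR10B, MIR196A1, MIR196A2 and MIR196B had none. In the PDS list only, a narrow peak fell within 1 kb of the start of HOXB-AS1 and another in an intron of SMUG1, a DNA repair gene.

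Genes that act with or upstream of HOX proteins were counted in the same way. Of 9 genes of TALE cofactors, homeodomain proteins that bind DNA together with HOX proteins, 2 had a control peak within 1 kb of the start (PKNOX1 and PKNOX2) and 1 had a PDS peak (PKNOX2). The PBX and MEIS genes had none. Of 14 regulators of HOX genes, 4 had a peak in both lists, namely BMI1, CBX2, EZH1 and RNF2, all members of Polycomb complexes, which keep HOX genes silent. CBX8, EED, EZH2 and SUZ12 of the same complexes had none. CDX1, CDX2, CDX4, KMT2A, MEN1 and DOT1L, known as activators of HOX genes, had none in either list. Neither EVX1 nor EVX2 had a peak within 1 kb of its start. These counts compare with the 22.2% and 20.9% of all protein-coding genes given above.

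The peaks of 1 list only were mostly narrow, and all had p-values in the weaker 50% of their list. Control-only peaks were 4, with a median width of 210 bp against 600 bp for the shared control peaks, and PDS-only peaks were 9, with a median of 100 bp against 650 bp. These traits are common to such peaks, whose median width over the whole lists was 180 bp (control) and 100 bp (PDS). Among the stronger 50% by p-value were 0 of these 13, beside 11.5% of all control-only and 1.14% of all PDS-only peaks, and 30 of the 40 shared control and 31 of the 40 shared PDS peaks, beside 60.8% and 63.3% of all shared peaks. The widest were a control-only peak of 720 bp and a PDS-only peak of 550 bp. Of the 9 PDS-only peaks, 6 were of the narrowest width that the list holds, beside 60.3% of all PDS-only peaks, and 6 lay within 1 kb of a control peak, beside 60.2%. Of the 4 control-only peaks, 2 lay within 1 kb of a PDS peak, beside 22.96% of all. The lists were called on grids of 60 bp (control) and 50 bp (PDS).

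Inside the clusters, 3 peaks were in the control list only. One of them, chr17:46639561-46639800 in HOXB3 introns, had a fold of 25.9 and ended directly before the PDS-only peak chr17:46639801-46639900, which had a fold of 10.7. The pair thus marks nearly the same place without sharing a base. The control-only peak chr17:46740541-46741260 in LINC02086 had a fold of 9.38, and chr2:176984281-176984400 in HOXD10 had a fold of 25.8. The latter lay near the PDS-only peak chr2:176984651-176984800, whose fold was 7.99.

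The PDS list had 8 peaks of its own inside the clusters, including both just named. In HOXB, chr17:46620701-46620800 in an exon of HOXB2 had a fold of 12.1, and chr17:46754751-46755100 in LINC02086 had a fold of 15.2. In HOXC, chr12:54382551-54382650 in HOXC10 had a fold of 17.9. The peak chr12:54406851-54406950, in the long HOXC6 gene record before the canonical start of HOXC6, had a fold of 17.4. Both were above the median fold of the whole PDS list, 16.7. Within the long HOXD10 gene record, before the canonical start of HOXD10, lay the other PDS-only peaks of HOXD. There chr2:176974601-176975150 had a fold of 16.6 and chr2:176976751-176976850 a fold of 11.4, on either side of a shared site. Of the 13 peaks in 1 list, the remaining 2 lay in flanks, chr17:46556041-46556220 before HOXB1 in the control list with a fold of 24.5 and chr12:54531151-54531250 in SMUG1 in the PDS list with a fold of 10.3.

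Pooled over the clusters, HOX peaks were wider and had somewhat higher folds than the whole lists, but the clusters differed. The median fold percentile was 50.0 in HOXA, 75.0 in HOXB, 33.1 in HOXC and 76.2 in HOXD in control cells. In PDS-treated cells it was 27.9, 81.0, 53.6 and 49.3, so that by fold HOXB alone was well above 50 in both. By p-value the medians, in the same order, were 58.4, 80.4, 60.8 and 82.1 in control cells. For PDS-treated cells they were 60.0, 76.9, 41.8 and 48.7, so that by p-value HOXA was also above 50 in both. Over all HOX peaks, the median fold was 32.5 in the control list, against 26.6 for all peaks, and 18.4 in the PDS list, against 16.7. The median percentile was 66.1 by fold and 71.6 by p-value in control cells, and 58.8 and 65.0 in PDS-treated cells. In the top 10% of their lists were 8 of 44 control and 6 of 49 PDS peaks by fold, and 10 and 12 by p-value. Median widths were 570 and 500 bp, against 360 and 300 bp for all peaks, and the median GC content of the central 200 bp was 58.5% and 56.5%, against 52.0% and 53.5%.

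At the 40 shared sites, ranks by p-value were similar in both conditions and ranks by fold were not. Spearman's rho between the lists was 0.82 for the p-values and 0.28 for the folds, beside 0.80 and 0.42 over all 24633 one-to-one peaks. These are correlations across peaks, which share their libraries and are not independent replicates, so no p is given. By fold, 23 sites stood at a higher percentile in the PDS list and 17 at a lower one (57.5% higher, beside 51.4% of all one-to-one peaks). By p-value, 22 were higher and 18 lower (55.0%, beside 56.3%). Both measures were higher in the PDS list at 12 sites (30%, beside 22.7% of all one-to-one peaks) and lower at 7 (17.5%, beside 15.03%), and they moved in opposite directions at the other 21 (52.5%, beside 62.2%). The widest rise by fold, 77.1 percentile points at the HOXD8 site, went with a fall of 48.3 points by p-value. Among the sites where both measures moved together, the HOXB13 site rose by 13.4 points by fold and 31.7 by p-value, and the HOXA4 site fell by 22.8 and 31.5. With 1 list a condition, none of these shifts can be set against the spread between replicates.

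**Figure D4:**
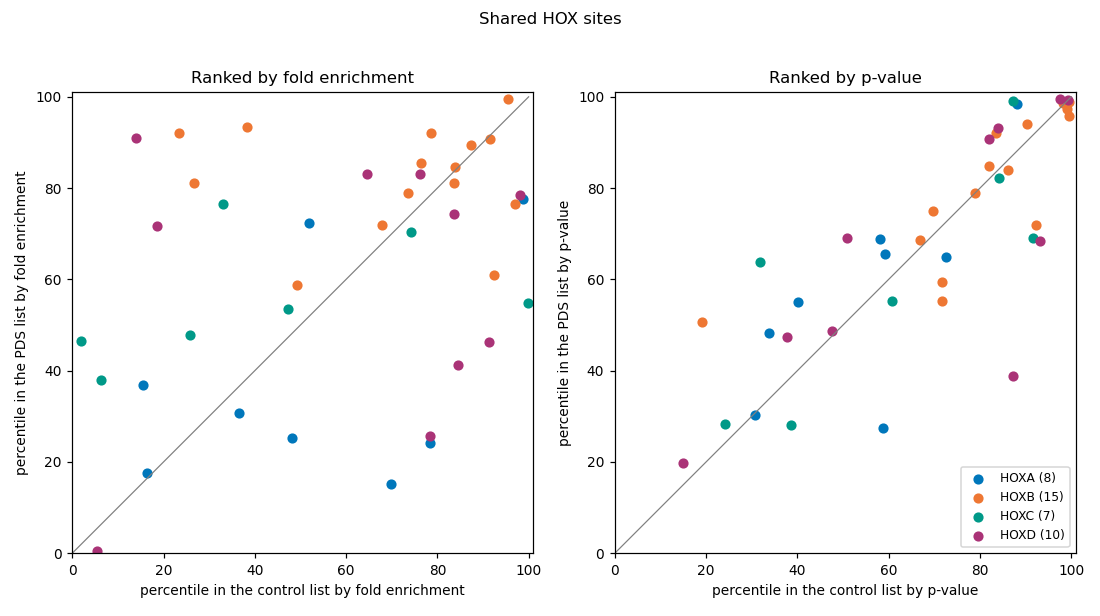
Percentile of each of the 40 shared HOX sites in the control list (x axis) and in the PDS list (y axis), by fold enrichment on the left and by p-value on the right, with the cluster as the colour and the line of equal percentiles in grey. The points scatter widely by fold (rho 0.28) and follow the line more closely by p-value (rho 0.82).

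G4 motifs were found in 12 of the 44 control peaks (27.3%, interval 16.3 to 41.8%), beside 16.0% of all control peaks, and in 13 of the 49 PDS peaks (26.5%, interval 16.2 to 40.3%), beside 17.1%. The wider HOX peaks offer more sequence. Within the central 200 bp the share was 20.5% of the control HOX peaks, beside 9.58% of all, and 10.2% of the PDS HOX peaks, beside 10.0%. The value for all peaks lay just below the HOX interval over whole peaks in the control list and inside it in the PDS list. With flanks of 200 kb the HOX shares over whole peaks were 19.4% and 22.97%. The peaks held 19 different motifs, 9 in HOXB, 4 each in HOXA and HOXD and 2 in HOXC, and 16 of the 19 were inside the clusters. Relative to the direction of the HOX genes, 10 lay on the same strand as the genes and 9 on the other. All 4 motifs of HOXD were on the strand of the genes, and both motifs of HOXC were on the opposite strand.

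The exact CTCF consensus was rare at HOX peaks. It was present in 2 of 44 control peaks (4.55%, interval 1.26 to 15.1%), beside 17.3% of all control peaks, and in 2 of 49 PDS peaks (4.08%, interval 1.13 to 13.7%), beside 14.4%. Both lay inside clusters and were the sites shown above. With 1 mismatch allowed, the consensus was in 25 of 44 control peaks (56.8%) and in 25 of 49 PDS peaks (51.0%), close to the 54.3% and 46.2% of all peaks. Of the 9 PDS-only peaks 0 held such a match, beside 9.49% of all PDS-only peaks, and 1 of the 4 control-only peaks did, beside 35.6% of all. These peaks were also narrower than the shared ones, and the part of width in this count was not tested.

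The direction of the matches differed between clusters as a description. Of the 31 matches with at most 1 mismatch in peaks of both lists, 12 lay on the strand of the HOX genes and 19 on the other. Inside HOXB, 7 of 8 were on the strand opposite to the genes, and inside HOXD, 5 of 6 were on the strand of the genes. Inside HOXA, 2 of 5 and inside HOXC, 2 of 4 were on the strand of the genes. Several of these matches share a peak, 3 of those in HOXD among them, and a match is a description of the sequence, not a bound site.

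**Figure D5:**
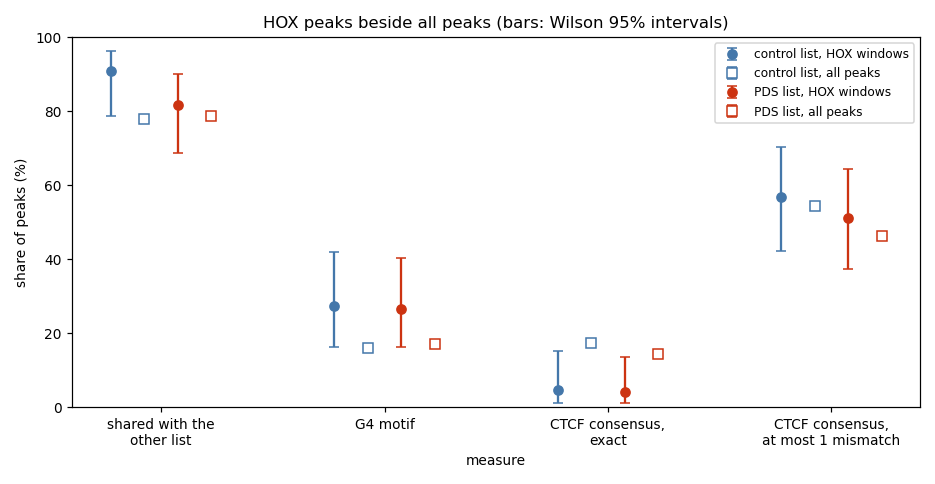
Share of peaks (y axis, %) that were shared with the other list, held a G4 motif, or held the CTCF consensus exactly or with at most 1 mismatch, for HOX peaks (filled circles) and all peaks (open squares) of the control (blue) and PDS (red) lists, with Wilson 95% intervals as bars. The exact consensus in HOX peaks lies below the level of all peaks (4.55% against 17.3% in the control list), while the shares with 1 mismatch allowed are alike (56.8% against 54.3%).

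The nearest control peaks outside the window limits were 146 and 276 kb away for HOXA and 302 and 164 kb for HOXD, and the nearest PDS peaks 313 and 276 kb for HOXA and 577 and 164 kb for HOXD. The last control peaks inside were 136 and 30.4 kb from the limits in HOXA and 86.7 and 21.3 kb in HOXD. At HOXB the nearest control peaks outside lay 53.3 and 49.4 kb from the limits, with folds of 18.8 and 31.5, and those just inside lay 28.5 and 13.6 kb from them, with folds of 33.3 and 36.4. At HOXC the nearest outside lay 46.7 and 32.7 kb away, with folds of 28.0 and 26.3, and the PDS-only peak in SMUG1 was 18.6 kb inside.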

How the data were processed

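The 7 samples were CTCF or IgG immunoprecipitates of K562 cells, and the cell line was taken from the labels, since peak lists hold no markers. Reads were aligned to hg19 with Bowtie2 2.2.3 per the submitters' processing notes, and the authors called peaks with PePr on both CTCF samples of a condition over IgG. The fold enrichment (ratio) of each peak over IgG was deposited as the authors computed it, as was its p-value. No p-value of either list exceeded 1.00e-05, which is stricter than the p-value cutoff that the paper states for PePr. A deposited score column was not used. The study reports 2 biological repeats of the ChIP-seq, whereas 1 control IgG sample was among the 7 samples.

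Peaks were ranked within a list, paired by an overlap of at least 1 bp, and annotated with GENCODE genes on GRCh37. Of the 33094 and 32917 peaks, motif shares over all peaks used the 33070 and 32893 on the chromosomes. The members and gene lists were chosen with earlier results of these data known. A regulator beside the 14 counted and some motif sequences are not reported here. The peaks described in full were, per cluster, the peak with the highest fold in each list, those of 1 list only and those with an exact consensus. Motif search and overlaps were tested on simulated data. Sequences were read with samtools 1.23.1 and pyfaidx 0.9.0.4, tables were computed in Python 3.11.15 (pandas 2.3.3, scipy 1.17.1, numpy 2.4.6), and matplotlib 3.10.9 drew the plots. Alternatives covered flank, overlap, merging, stringency, motif, window and the gene start, the last with the canonical transcript chosen after seeing the data.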

Additional observations from a re-analysis of the deposited data

How the results depend on the processing

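Of 64 alternatives, 51 left the value within its counting interval, a count within 1.5 times its main one, or a median within its 95% order-statistic interval, and 13 did not. The control list had 29 peaks without flanks and 67 with flanks of 200 kb. The PDS list had 74 with flanks of 200 kb and 31 in the 50% of each list that had the smaller p-values. With centres at most 100 bp apart, 72.7% of control (59.6% of all) and 65.3% of PDS peaks (59.9% of all) were shared. The PDS share was 93.9% (91.5% of all) with a gap of at most 1 kb and 90.3% (83.5% of all) in that more stringent 50%. G4 loops of up to 12 nt gave 43.2% of control peaks (26.8% of all) and 51.0% of PDS peaks (29.2% of all), and the central 200 bp gave 10.2% of PDS peaks. With 1 mismatch allowed the consensus was in 56.8% of control and 51.0% of PDS peaks. Nearest genes by distance to the gene body numbered 17 (control) and 18 (PDS), and by canonical start 25 and 28, with a change of genes, since 8 of the 12 genes nearest to no peak then gained one. No paired analysis was possible because the replicates of a condition entered 1 joint list, and leaving out a replicate likewise gave no value. Depth is unknown, so the limit below which a site was not called cannot be given for either list.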
